A study of Drosophila melanogaster with 6 samples.

Results

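Metabotropic receptors for GABA, acetylcholine and glutamate were examined in T4/T5 neurons of Drosophila melanogaster that did or did not express a hairpin against Drgx, which encodes a homeobox transcription factor. The set holds 7 genes of 23932 annotated features: the GABA-B receptor genes GABA-B-R1, GABA-B-R2 and GABA-B-R3, the muscarinic acetylcholine receptor genes mAChR-A, mAChR-B and mAChR-C, and the metabotropic glutamate receptor gene mGluR. They were chosen by name and class, with their values in knockdown against control already known, so all values for that contrast are a description and no p-value is given for them. The T4/T5 neurons, which are the direction-selective cells of the fly optic lobe, carried R23G12-Gal4 and a membrane-bound GFP transgene, UAS-CD8-GFP, in both groups. The 3 control libraries carried UAS-cherry-IR, a hairpin against a fluorescent protein, opposite R23G12-Gal4 in the genotype. The 3 knockdown libraries carried UAS-DRGX-IR opposite the GFP transgene instead, so the groups also differed in where the hairpin sits. Brains were taken from climbing larvae of the L3 stage raised at 25 °C, and GFP-positive cells were sorted by flow cytometry. The driver line defines the cells, and nothing in the labels says that the libraries of a group came from separate crosses or pools of brains.

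These receptors are G protein-coupled, so they act more slowly than ligand-gated channels and change the excitability or transmitter release of a cell rather than carrying current themselves. GABA-B receptors work as a pair, in which GABA-B-R1 binds GABA and GABA-B-R2 carries the receptor to the surface and couples it to inhibitory G proteins. In the fly, mAChR-A couples to the phospholipase C route and mAChR-B to inhibition of cyclic AMP production, while mGluR belongs with the vertebrate glutamate receptors that inhibit adenylyl cyclase. T4 and T5 dendrites receive cholinergic input together with GABAergic and, in T4, glutamatergic input.

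Library totals ran from 29587960 to 44054609 counts. Drgx stood at 2142 ± 27.6 CPM (normalised counts scaled to library size) in control and 707 ± 37.8 CPM in knockdown (SD, n = 3 each), or 33.01% of control. Among the 9932 tested features, 325 were at 0 in knockdown replicate 2 and 118 to 171 in each other library. In RNA from pooled cells, fewer cells expressing a gene and less RNA per cell cannot be told apart.

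The control libraries set the order of the receptor genes when counts were divided by exon length. GABA-B-R2 was the highest, at 42.1 ± 0.290 CPM per kb of merged exon (SD, n = 3 here and below), above 79.6% of the 8538 tested protein-coding genes. GABA-B-R1 followed at 12.2 ± 0.595 CPM per kb, near the middle of those genes at the 48.7 percentile. mGluR stood at 7.99 ± 0.992, mAChR-A at 5.90 ± 0.433 and GABA-B-R3 at 4.52 ± 0.883 CPM per kb. mAChR-B and mAChR-C were barely detected, at 0.0798 ± 0.0750 and 0.0342 ± 0.0592 CPM per kb. No neighbours in this order overlapped between libraries except mAChR-B and mAChR-C, although the gap was small between mAChR-A, whose lowest control library was at 5.43 CPM per kb, and GABA-B-R3, whose highest was at 5.35. Coding length in place of exon length kept the order and gave 45.7 CPM per kb for GABA-B-R2 and 27.4 for GABA-B-R1. In the knockdown libraries the order below the GABA-B pair was different. mGluR, at 2.99 ± 1.34 CPM per kb, overlapped with mAChR-A, at 2.93 ± 0.770. mAChR-B, at 0.922 ± 0.463 CPM per kb, stood above GABA-B-R3, at 0.216 ± 0.291, without overlap.

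**Figure D1:**
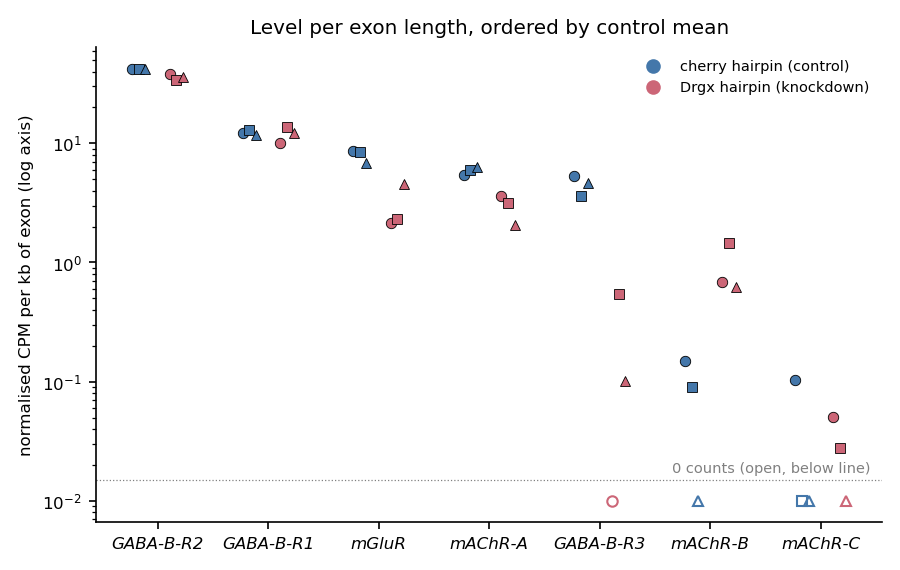
Normalised CPM per kb of merged exon (log axis) for the 7 receptor genes, ordered by control mean, with 1 point per library and the replicate number given by the marker shape (circle 1, square 2, triangle 3). Libraries with no count are drawn open below the dotted line. GABA-B-R2 is highest in both groups, and GABA-B-R3 and mAChR-B exchange places between groups.

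The genes lie apart in the genome. In BDGP6.54, GABA-B-R1 (FBgn0260446) spans 2L from 15016331 to 15034704 and GABA-B-R3 (FBgn0031275) spans 2L from 749945 to 762399. GABA-B-R2 (FBgn0027575) spans 3R from 21770333 to 21775840 and mAChR-B (FBgn0037546) spans 3R from 8059284 to 8087049. mAChR-A (FBgn0000037) spans 2R from 24378630 to 24390294, mAChR-C (FBgn0029909) spans X from 6831397 to 6832684 and mGluR (FBgn0019985) spans chromosome 4 from 936819 to 949441. The annotation gives GABA-B-R3 the most transcripts, 7, and mAChR-C a single one.

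The GABA-B genes divided into a pair that was close to its control level and another gene that was nearly lost. GABA-B-R1, the GABA-binding partner, had 69.2, 72.4 and 65.7 CPM in control replicates 1, 2 and 3 and 56.7, 77.3 and 68.6 CPM in knockdown replicates 1, 2 and 3. The groups overlapped, with the knockdown libraries both above and below all controls. Its fitted log2 fold change was −0.03 (SE 0.124), and it was above 0 without control replicate 2 (0.0026) or without knockdown replicate 1 (0.079). GABA-B-R2, the coupling partner, had 168.8, 166.5 and 167.9 CPM in control and 151.0, 136.5 and 143.4 CPM in knockdown. Every knockdown library was below every control library, by a small margin relative to the level, and the log2 fold change was −0.22 (SE 0.0716). GABA-B-R2 did not pass the threshold of an adjusted p of 0.05 in edgeR's table-wide fit and passed it with DESeq2, at a log2 fold change of −0.22. The level of GABA-B-R1 per length relative to GABA-B-R2 was 0.291 ± 0.0154 in control and 0.335 ± 0.0676 in knockdown, where it ran from 0.266 to 0.401 and covered the control values. With coding length the ratio was 0.599 in control and 0.689 in knockdown.

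GABA-B-R3 encodes an insect GABA-B protein whose function is less well defined than that of the pair. The control libraries held 1206, 1099 and 1120 counts, or 37.6, 25.3 and 32.5 CPM. In knockdown it had 0, 113 and 27 counts, or 0, 3.85 and 0.715 CPM. All knockdown libraries were far below the controls and differed widely among themselves. A count of 0 in knockdown replicate 1 allows up to 0.0926 CPM, counting error alone being considered. The mean was 31.8 ± 6.21 CPM in control and 1.52 ± 2.05 CPM in knockdown, which is 4.78% of control. It changed by −4.42 on the log2 scale (SE 0.856), larger in size than that of 99.4% of tested features, and it passed the table-wide threshold. It was −4.28 without control replicate 1, −4.40 without control replicate 3 and −4.07 without knockdown replicate 3, and in these fits, as with DESeq2 (−4.38), it did not pass. Without knockdown replicate 2 it was −6.39. Relative to GABA-B-R1 per length, GABA-B-R3 went from 0.371 ± 0.0813 in control to 0.0161 ± 0.0211 in knockdown, or 0.0042 without knockdown replicate 2.

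**Figure D2:**
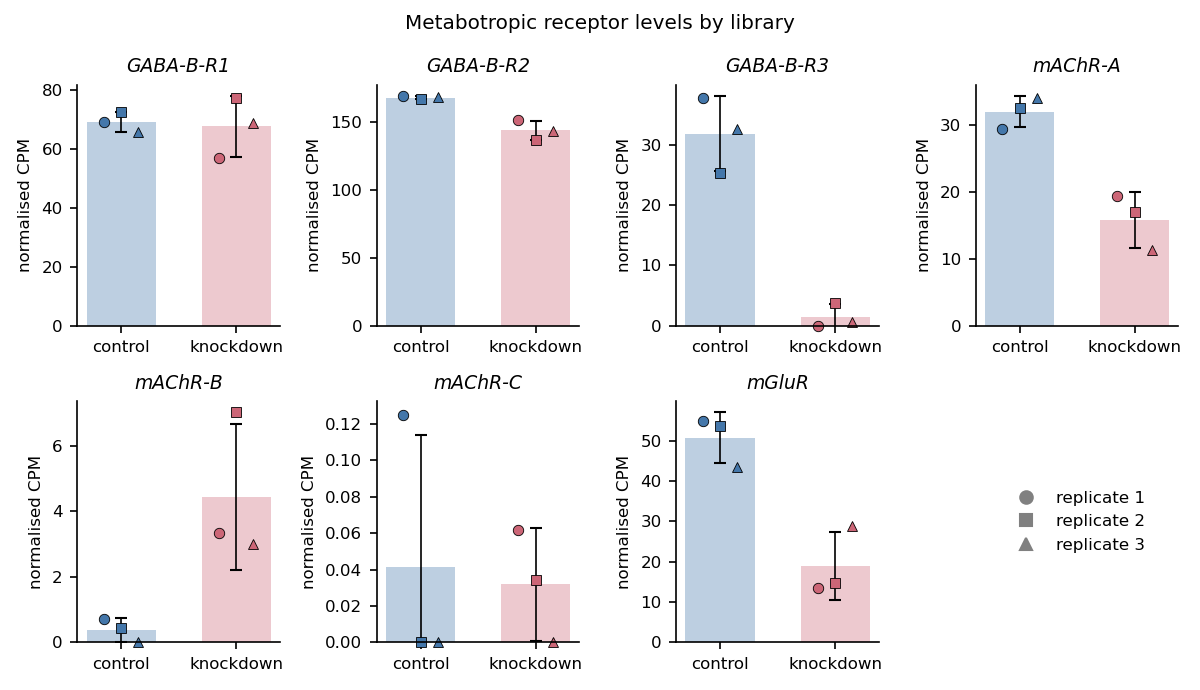
Normalised CPM of each receptor gene by library, with bars at the group mean, error bars at 1 SD (n = 3) and marker shape giving the replicate number. Each panel has its own linear axis from 0. GABA-B-R3, mAChR-A and mGluR are lower in all 3 knockdown libraries, mAChR-B is higher in all 3, and GABA-B-R1 overlaps between groups.

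Of the muscarinic genes, mAChR-A was called lower, mAChR-B was not called and mAChR-C was not tested. mAChR-A, the receptor of the phospholipase C route, had 29.5, 32.5 and 34.1 CPM in control and 19.4, 17 and 11.3 CPM in knockdown. The groups did not overlap, and the knockdown mean was 49.6% of that in control. Its log2 fold change was −1.01 (SE 0.199) and passed the table-wide threshold. It did not pass without control replicate 2 (−1.0) or control replicate 3 (−0.97). Of its exons, 111 bp are shared with CG13578 on the opposite strand, a gene with at most 1.09 CPM in any library, and whether counting used strand is not given in the sources used here.

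mAChR-B, the receptor linked to inhibition of cyclic AMP production, had 23, 19 and 0 counts in control and 108, 206 and 113 counts in knockdown. These are 0.718, 0.437 and 0 CPM against 3.33, 7.02 and 2.99 CPM, where the count of 0 in control replicate 3 allows up to 0.0871 CPM. Every knockdown library was above every control library, from a level close to the limit of detection. The log2 fold change was 3.52 (SE 0.966). It did not pass the table-wide threshold in edgeR, and it passed with DESeq2 (3.54), with no filter on low counts (3.52) and without control replicate 3 (2.94). Per length, mAChR-B was at 0.0798 CPM per kb against 5.90 for mAChR-A in control, and at 0.922 against 2.93 in knockdown. The muscarinic sum per length was 6.02 ± 0.306 CPM per kb in control and 3.88 ± 1.03 in knockdown, and its control and knockdown libraries did not overlap. mAChR-C had 4, 0 and 0 counts in control and 2, 1 and 0 in knockdown, and was removed by the filter on low counts. It lies within the span of nonC, on the opposite strand, which had 56.7 to 95.8 CPM. At these counts a fall in mAChR-C could not be seen, and no rise was seen.

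mGluR encodes the metabotropic glutamate receptor of the fly. It had 55.0, 53.7 and 43.5 CPM in control and 13.6, 14.7 and 28.8 CPM in knockdown. The groups did not overlap, with knockdown replicate 3 standing about midway between the other knockdown libraries and the controls. The mean went from 50.7 ± 6.30 to 19.0 ± 8.50 CPM, or 37.5% of control, and the log2 fold change was −1.41 (SE 0.266), past the table-wide threshold. Without knockdown replicate 3 it was −1.85. It did not pass without control replicate 1 (−1.35) or control replicate 2 (−1.37). The mGluR span on chromosome 4 holds 8 annotated transposable elements. Their summed counts were 62, 48 and 40 in control and 10, 2 and 46 in knockdown, so the knockdown library with the most mGluR also had the most element counts. One element shares 57 bp of exon with mGluR and had no count in any library.

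Of the 7 genes, 6 passed the filter on low counts and 3 of these passed the table-wide threshold, all 3 lower in knockdown. Over all tested features 6.21% passed, 2.1% higher and 4.11% lower. The groups did not overlap for 5 of the 6, 4 lower and 1 higher, where 23.3% of tested features did not overlap, 12.4% lower and 10.9% higher. Because the genes were chosen with this contrast known, nothing is read from these shares. The median log2 fold change of the 6 was −0.62, against 2.65e-05 over all tested features. The number passing was 1 without control replicate 1, where mAChR-A remained, and 1 without control replicate 2, where GABA-B-R3 remained.

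**Figure D3:**
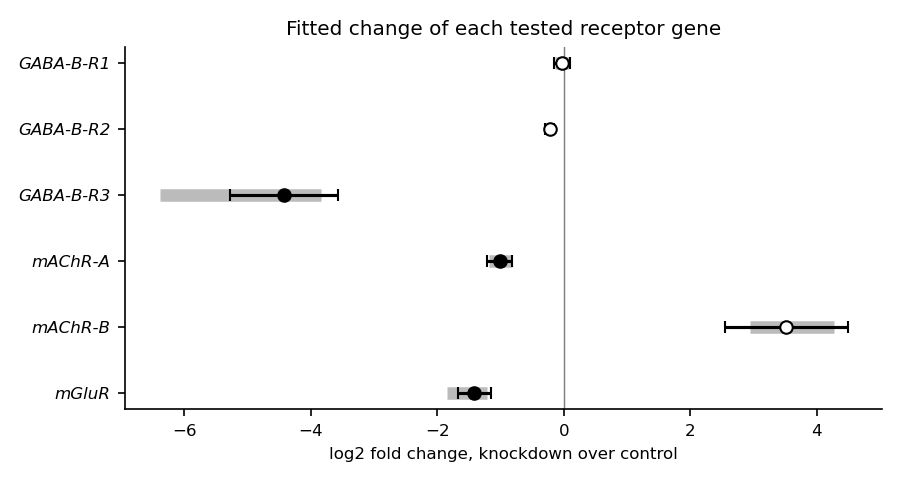
Log2 fold change of knockdown over control for the 6 tested receptor genes, with error bars at 1 SE. Filled points passed the table-wide threshold and open points did not, and grey bars span the fits that each left out 1 library. GABA-B-R3 has the longest grey bar, from −6.39 to −3.84.

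The make-up of the receptor RNA was then compared as shares of the 7-gene sum per length. The sum was 71.5 to 74.3 CPM per kb in control and 54.4 to 55.5 in knockdown. GABA-B-R2 gave 57.8% ± 0.995 of it in control and 65.4% ± 3.97 in knockdown, and GABA-B-R1 gave 16.8% ± 0.729 and 21.7% ± 3.13. For both genes every knockdown share was above every control share, while neither gene had a higher mean level. The share of mGluR was 11% ± 1.19 in control and 5.42% ± 2.39 in knockdown, and that of mAChR-A 8.12% ± 0.747 and 5.33% ± 1.44. GABA-B-R3 went from 6.20% ± 1.15 to 0.390% ± 0.525 and mAChR-B from 0.108% ± 0.101 to 1.67% ± 0.830. Shares sum to a fixed total and are not independent of each other.

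**Figure D4:**
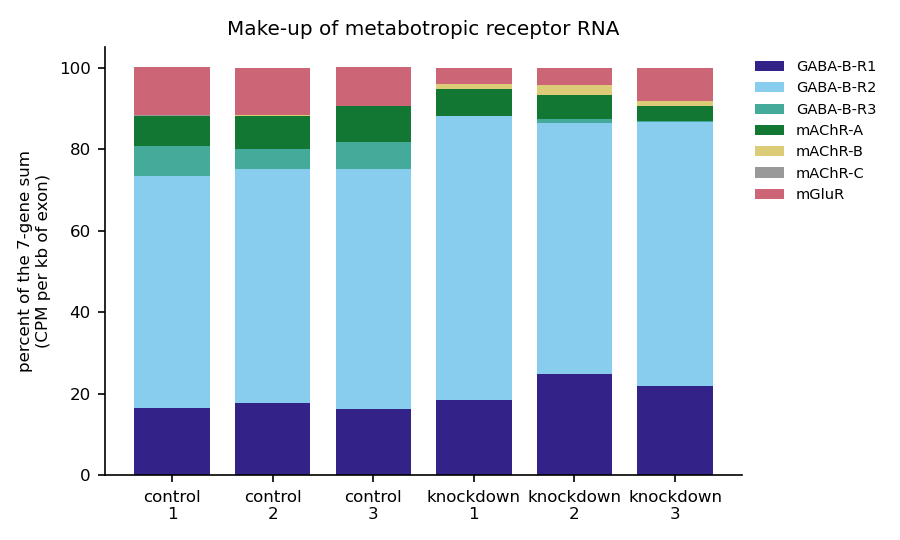
Share of each receptor gene in the 7-gene sum of CPM per kb of exon, in percent, with 1 bar per library. The GABA-B-R1 and GABA-B-R2 segments fill 73.5% to 75.2% of the control bars and 86.5% to 88.1% of the knockdown bars, and the GABA-B-R3 segment is at most 0.988% in knockdown.

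Genes that work beside these receptors were counted from 5 lists. Over all tested features 6.21% passed, 2.1% higher and 4.11% lower. The lists, like the members, were chosen with earlier results of these data known, so nothing is read from their shares. For the same reason, the adjusted p-values given for their genes describe this contrast and are not independent tests. In edgeR, 1630 of the 9932 tested features had an unadjusted p under 0.05. Of 10 tested G protein subunit genes, none passed in edgeR (2 had an unadjusted p under 0.05), and DESeq2 and limma-voom each called 1. The highest CPM, not corrected for length here or in the next lists, were those of Gbeta13F, which encodes a beta subunit, with 1741 ± 102 in control against 1513 ± 65.1 in knockdown (log2 fold change −0.20, SE 0.0554, edgeR adjusted p 0.0689), and Galphao, which encodes an alpha subunit abundant in neurons, at 861.3 ± 38.9 and 781.6 ± 16.8 CPM (−0.14, SE 0.0523, adjusted p 0.198). Their median log2 fold change was −0.05.

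Of 24 tested effector and regulator genes, 3 passed, 1 higher and 2 lower, with a median of −0.03. cac, which encodes the presynaptic calcium channel subunit of a class that G proteins inhibit in vertebrates, fell from 165.7 ± 17.6 to 106.4 ± 5.22 CPM (log2 fold change −0.64, SE 0.0936, edgeR adjusted p 0.00218). The protein kinase C gene Pkc98E fell by 0.45 on the log2 scale (SE 0.0947, edgeR adjusted p 0.0182). It did not pass without control replicate 2 or 3 or knockdown replicate 1 or 3, with values from −0.50 to −0.41 over all alternatives. loco, a regulator of G protein signalling that is also prominent in glia, rose by 0.84 (SE 0.161, edgeR adjusted p 0.0116). It did not pass without control replicate 2 or knockdown replicate 1, with values from 0.72 to 1.01, and an overlap of 1032 bp of exon joins it to an antisense noncoding gene. Without knockdown replicate 1 the list held 1 call. Pka-C1, a catalytic subunit of the cyclic AMP-dependent kinase, and Gprk1, a receptor kinase, had the highest CPM of the list, with log2 fold changes of −0.06 (SE 0.0477) and −0.05 (SE 0.0538), and neither passed. Irk1, a potassium channel gene of the class opened by G proteins in mammals, and the arrestin genes Arr1 and Arr2 had no count in any library. Irk1 shares 3202 bp of exon with CG46310 on the same strand, so its 0 is uncertain to that extent.

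Of 11 tested genes for synthesis, transport and clearance of the transmitters, 1 passed, and the median was −0.22. Eaat2, an excitatory amino acid transporter, fell from 100.7 ± 3.64 to 63.3 ± 6.73 CPM (log2 fold change −0.67, SE 0.103, edgeR adjusted p 0.00298). VAChT, the vesicular acetylcholine transporter, shares 606 bp of exon with ChAT and did not pass, at −0.22 (SE 0.0758). Gabat, which encodes an enzyme of GABA breakdown, was at 0.23 (SE 0.124) and did not pass.

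The ligand-gated receptors for the same transmitters held 7 calls among 21 tested genes, all 7 lower, with a median of −0.43. Of all tested features 4.11% were called lower, and this list too was chosen with earlier results known. nAChRalpha6 fell from 126.4 ± 9.93 to 25.6 ± 5.95 CPM (log2 fold change −2.31, SE 0.163, edgeR adjusted p 1.41e-05). nAChRalpha3 fell from 23.4 ± 4.05 to 2.91 ± 2.0 CPM (−3.02, SE 0.417, edgeR adjusted p 0.0015) and shares 251 bp of exon with CG1636 on the opposite strand. nAChRalpha1 fell by 1.15 and the AMPA-type glutamate receptor gene GluRIA by 1.5 on the log2 scale. The smaller falls were nAChRalpha2 at −0.53, nAChRbeta1 at −0.45 and the glutamate-gated chloride channel gene GluClalpha at −0.32. nAChRalpha2 did not pass without control replicate 1 or 2 or knockdown replicate 2. nAChRbeta1 did not pass with the replicate number as a block, or without any one control replicate or knockdown replicate 1 or 3. GluClalpha did not pass whichever library was left out, with values from −0.35 to −0.29 over all alternatives. The list held 4 calls without control replicate 1 and 4 without control replicate 2. KaiR1D, a kainate-type receptor gene with the highest CPM of the list, was at −0.04 (SE 0.0715).

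Among other receptors of the structural class that holds the GABA-B and glutamate receptors, mtt rose and smog did not pass. mtt, an mGluR-like gene, had 1.87, 0.828 and 1.07 CPM in control and 9.91, 10.6 and 15.4 CPM in knockdown. Its groups were far apart, with a log2 fold change of 3.26 (SE 0.361, edgeR adjusted p 3.64e-04). smog was at 0.21 (SE 0.0791), and boss had no count in any library.

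**Figure D5:**
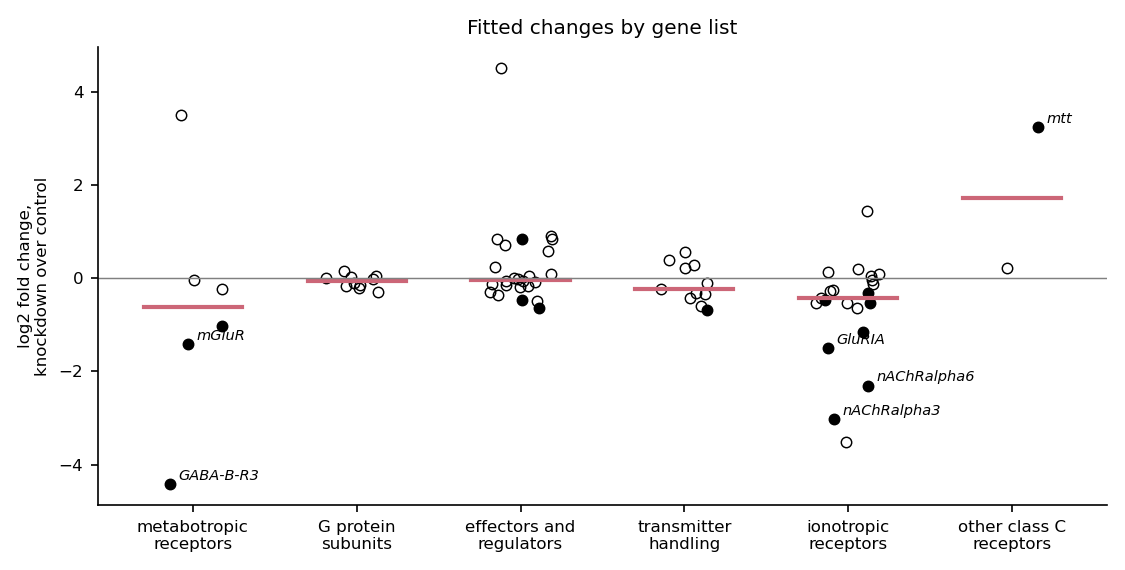
Log2 fold change of knockdown over control for each tested gene of the receptor set and of 5 lists of related genes. Filled points passed the table-wide threshold, open points did not, and red lines mark medians, which are −0.62 for the metabotropic and −0.43 for the ionotropic receptors.

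Markers of the labelled cells and of others were read beside these values. Of all 9932 tested features, 4.11% were called lower and 2.1% higher, and 1630 had an edgeR unadjusted p under 0.05. The groups did not overlap for 12.4% lower and 10.9% higher. The T4/T5 lineage genes summed to 8192 to 8534 CPM in control and 4645 to 4866 in knockdown, with 6 of 10 called lower and none called higher. Drgx, the target of the hairpin, is among the 6 and is part of the sum. The genes not called were TfAP-2 (577.6 CPM in control, 561.4 in knockdown), grn (192.2 and 183.6), ato (12.3 and 10.1) and acj6. acj6 was higher in every knockdown library, at 592.6 and 689.4 CPM. TfAP-2 was slightly lower in every knockdown library, at 553.3 to 569.1 CPM against 575.2 to 581.7 in control. Of 5 pan-neuronal genes, 3 that encode synaptic proteins were lower, nSyb at −0.48, brp at −0.78 and Syt1 at −0.46, while the RNA-binding protein gene fne was higher at 1.23 and elav was at −0.02 (SE 0.0461). The 9 glial genes summed to 600.0 to 673.5 CPM in control and 795.1 to 851.1 in knockdown, most of it nrv2. Gs2 and nrv2 were called higher (5 genes at an unadjusted p under 0.05), and 5 were higher without overlap between groups. The defining gene repo was at 9.74 ± 2.66 and 9.82 ± 1.86 CPM, and Gat had a lower mean in knockdown, 13.6 ± 1.24 and 8.92 ± 5.38 CPM, with overlap. The 8 progenitor genes held 0 calls and summed to 256.2 to 287.9 CPM in control and 299.9 to 311.1 in knockdown. At an unadjusted p under 0.05 there were 3, ase and stg higher and mira lower. Without overlap between groups, 3 were higher (ase, stg and PCNA) and 1 lower (mira). The 7 genes for mushroom body and other transmitter neurons, 6 of them tested, held 0 calls (1 at an unadjusted p under 0.05). They summed to 22.1 to 36.9 CPM in control and 23.1 to 36.1 in knockdown. Of the 6, 3 were higher without overlap and 0 lower. These were ey, Trhn and Tdc2, with knockdown means of 3.51, 1.40 and 1.78 CPM. The 6 hemocyte and fat body genes summed to at most 4.02 CPM, with Ppn called higher and NimC1 and srp at 0, and the 4 photoreceptor genes to at most 2.25 CPM, with ninaE and trp at 0. The part of these cells in the receptor values was not tested.

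The genes whose levels followed each receptor most closely over the 6 libraries were found by Pearson's r of log2(CPM + 1) among 5872 genes with a mean of at least 10 CPM. For GABA-B-R3 they were adp, CG42750 and Cipc, at r from 0.988 to 0.991, and CG42750 also had a log2 fold change of −3.83. For mAChR-A they were CG32017, CG6912 and Rpn6, and for mAChR-B they were Ns2, CG31523 and Fas2, with r from 0.977 to 0.994 over both. For mGluR they were scramb1, CG42337 and Lk6, at 0.988 to 0.994, all with smaller changes than mGluR itself. For GABA-B-R2 they were CG13204, loaf and sgl, at 0.995 to 0.997, and for GABA-B-R1 they were Trf2, sicily and Bub3, at 0.978 to 0.982. The 6 libraries share 2 groups, and the best of 5872 values of r is high in any case, so these are descriptions.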

How the data were processed

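RNA of sorted T4/T5 neurons was profiled in 3 control and 3 knockdown libraries made with SMART-Seq v4, per the labels' protocols. The authors deposited raw counts per feature, 1 column per library. STAR, DESeq2 and build BDGP6 are named in the submitters' processing notes; the counting program, annotation release and strand setting are not given in the sources used here. Identifiers were matched to Ensembl 115 (BDGP6.54) for 23851 of 23932 features. Columns were assigned by their names and the labels' replicate numbers.

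Features were kept with filterByExpr (minimum count 10), scaled with TMM and tested with edgeR 4.0.16 (glmQLFit, glmQLFTest) in R 4.3.3, group only, with Benjamini-Hochberg adjustment over 9932 features and a threshold of 0.05. SE is the absolute log2 fold change over the square root of F. Alternatives were DESeq2 1.42.0, limma-voom (limma 3.58.1), other scalings and filters, the replicate number as a block, coding length, and leaving out each library. An exact permutation test of 3 against 3 cannot go below p 0.1. In data simulated for this comparison over 9783 tested genes, edgeR recovered 98.5% of 194 genes changed 4-fold, with 14 false calls. The simulated libraries varied less than these data, whose common biological coefficient of variation was 0.304. That recovery is therefore likely higher than in these data, and it says nothing of smaller changes.

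The members and lists were chosen with earlier results of these data known. Named genes are the members, Drgx, list genes that passed, the 2 of highest mean CPM per list, and the 3 closest by r; other genes were named after their values were seen. P-values measure the spread between these libraries, which may be technical. No libraries agreed within sampling noise (chi-square per degree of freedom 22.4 to 41.3 within groups). Limits at a count of 0 use 3 counts; amplified reads are not independent molecules. No sequences were used here.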

Additional observations from a re-analysis of the deposited data

How the results depend on the processing

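The number of features called, 617, became 952 with DESeq2, 556 with the replicate block and 399 to 556 when 1 library was left out. GABA-B-R2 passed with DESeq2 (−0.22). GABA-B-R3 did not pass with DESeq2 (−4.38) and ran from −6.39 to −3.84 without 1 library. With limma-voom GABA-B-R3 passed, at −6.50 (SE 1.34). mAChR-B passed with DESeq2 (3.54) and with no filter (3.52), and ran from 2.94 to 4.27 without 1 library. With limma-voom mAChR-B did not pass, at 4.52 (SE 1.35). Without 1 library, mAChR-A ran from −1.18 to −0.82, mGluR from −1.85 to −1.22, GABA-B-R2 from −0.26 to −0.19 and GABA-B-R1 from −0.14 to 0.079, above 0 in 2 fits (0.0026 and 0.079). Without 1 library, the members passing ran from 1 to 3, the ionotropic calls from 4 to 6, the effector calls from 1 to 3 and the G protein calls from 0 to 1. DESeq2 called 4 members, 9 ionotropic, 5 effector and 1 G protein gene, no filter gave 4 members and 8 ionotropic genes, and limma-voom and the replicate block each called 1 G protein gene. GABA-B-R3 and mAChR-B drop out of the fit that requires 10 counts in every library, which called 2 members and 8 ionotropic genes. Without 1 library, the ratio of GABA-B-R3 to GABA-B-R1 ran from 0.0042 to 0.0241 in knockdown. With coding length the control levels were 27.4 (GABA-B-R1), 45.7 (GABA-B-R2), 8.12 (GABA-B-R3), 13.3 (mAChR-A) and 17.3 (mGluR) CPM per kb, and GABA-B-R1 relative to GABA-B-R2 was 0.599 in control and 0.689 in knockdown. The cause of these shifts was not tested. With the replicate block, mGluR (−1.49), GABA-B-R3 (−4.97) and mAChR-A (−1.04) passed. Over all tested features, same-numbered libraries did not deviate together (r −0.03 to 0.0557, against −0.0589 to 0.0756 for other pairs). The labels name no batch, and a pairing by number that touches only some genes was not tested. Other scalings moved the median of all features by at most 0.0281. Low counts limit mAChR-B and mAChR-C.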
